A study of Mus musculus with 10 samples.

Results

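The constitutive proteasome was examined at the transcript level in microglia, the resident macrophages of the brain, and in whole hemi-brain tissue. The 35 genes were chosen by name: 7 alpha and 4 non-catalytic beta subunits of the 20S core particle, 6 ATPases, 4 scaffolds and ubiquitin receptors and 8 lid subunits of the 19S regulatory particle, 3 alternative activators or inhibitors, and 3 assembly chaperones. They were 35 of 56748 genes counted, and all 35 were among the 18969 genes that passed the filter on low counts. RNA-seq with poly-A selection had been made from 5 sorted samples of CD11b-positive brain cells (microglia, 400000 cells per sample) and from 5 samples of hemi brains (bulk brain). All samples came from young male C57BL/6 mice with no treatment named. The sort takes every cell that carries CD11b, which border-associated macrophages and some blood leukocytes also carry. Whether each sample is its own animal is not stated in the labels. The p-values therefore describe the spread among these samples, part of which may be technical.

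The proteasome degrades proteins that carry ubiquitin chains. Its 20S core is a barrel of stacked alpha and beta rings with the proteolytic sites inside, and the 19S particle caps the barrel, binds ubiquitin, removes it and uses ATP to unfold and feed in the substrate. In neurons the proteasome turns over many synaptic proteins, and in macrophages interferon exchanges the catalytic beta subunits for those of the immunoproteasome. The series title concerns synaptic proteins that degrade more slowly with age and accumulate in microglia, and the comparison shows which degradation genes young microglia transcribe. Only transcripts of young animals are covered.

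Counts per library ranged from 25087489 to 28514509 in microglia and from 25845049 to 34709215 in bulk brain. The sort was visible in the markers: 8 microglia genes summed to 30311 to 31303 CPM (the usual scaling of counts to library total, with TMM correction for composition) in microglia and 198 to 263 CPM in bulk brain, and 6 neuronal genes summed to 4.05 to 6.17 CPM in microglia, against 4194 to 4858 CPM in bulk brain. Summed levels in microglia and in bulk brain were 133 to 159 and 2212 to 3703 CPM for astrocyte genes, 143 to 245 and 5548 to 7531 CPM for oligodendrocyte genes, and 65.0 to 93.9 and 191 to 240 CPM for endothelial genes. Genes of border-associated macrophages reached 466 to 601 CPM in microglia against 8.75 to 11.2 CPM in bulk brain, genes of neutrophils, monocytes and lymphocytes 30.4 to 40.5 CPM against 0.468 to 1.31 CPM, and genes of the dissociation response 15023 to 18157 CPM against 265 to 360 CPM. No marker gene was at 0 counts over all libraries of a group. The part of these other signals in the proteasome values was not tested.

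Bulk brain replicates 1 and 2 stood apart from replicates 3 to 5, and the proteasome genes moved with that division. The 35 genes together amounted to 2081 to 2208 CPM in the 5 microglia libraries, 3518 and 4569 CPM in the first pair of bulk brain replicates, and 2395 to 2489 CPM in the remaining 3. Microglia therefore lay below every bulk brain library in the sum, but by a far smaller margin against replicates 3 to 5. The results below use all 5 bulk brain libraries unless a part of them is named. The labels give the same batch value for all 10 samples.

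**Figure D1:**
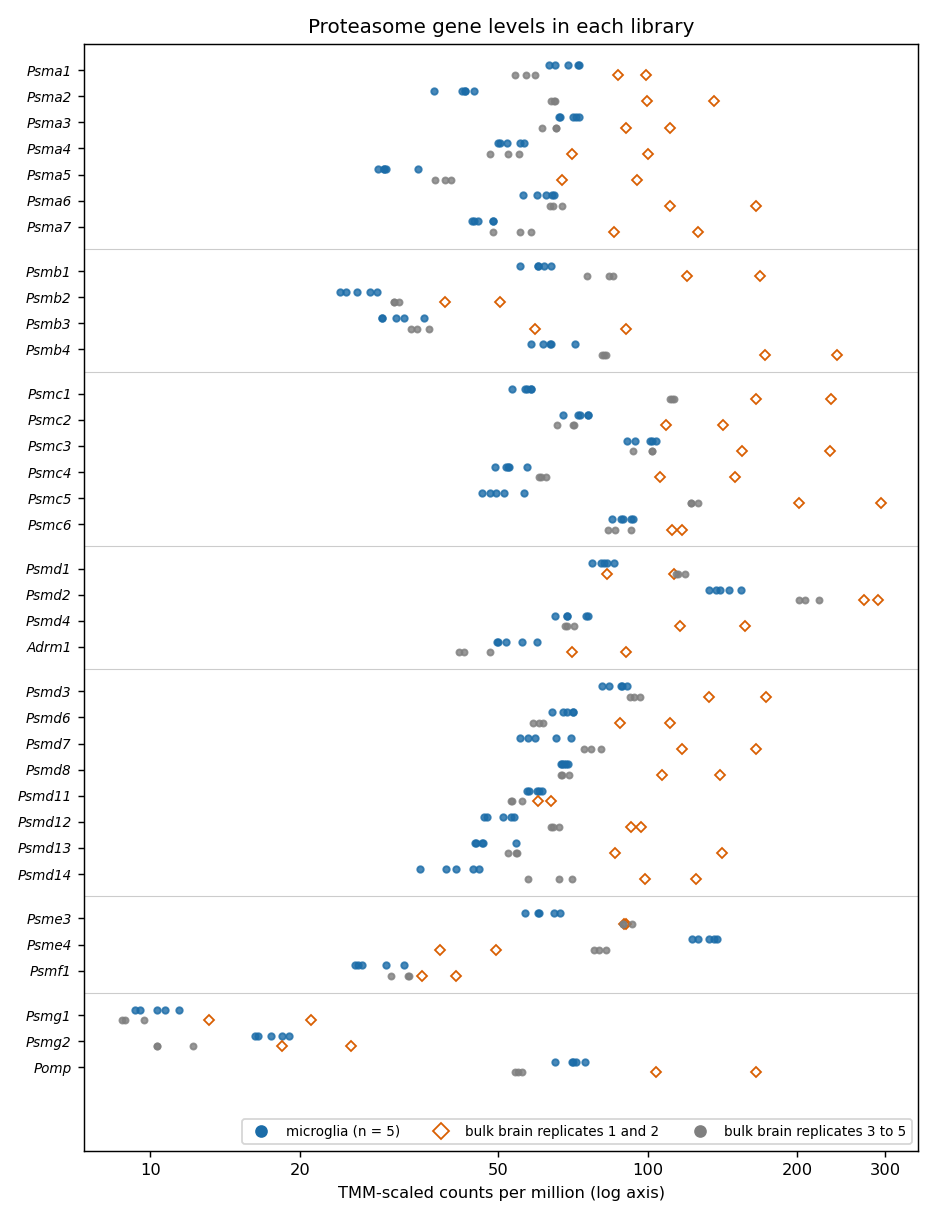
Level of each of the 35 proteasome genes in every library, in TMM-scaled CPM on a log axis, grouped by role from the alpha ring (top) to the assembly chaperones (bottom). Blue points are microglia, open diamonds bulk brain replicates 1 and 2, and grey points bulk brain replicates 3 to 5; the diamonds lie to the right of the grey points for 32 genes, while Psme4 and Psmd1 show the opposite order.

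Most proteasome genes were modestly lower in microglia than in bulk brain. With all libraries, the test called 20 of the 35 lower and 1 higher, leaving 14 uncalled (edgeR quasi-likelihood test, adjusted p under 0.05 over all genes tested). The 20 lower genes are 57.1% of the members, where 43.9% of all genes tested were lower, and the 1 higher gene is 2.86% of them, where 37.2% of all genes were higher. Counts by role given below are to be read beside the same shares of all genes. The members' median log2 difference, microglia minus bulk brain, was -0.48, and that of all genes tested was -0.14. The differences were small for this comparison: their median absolute size was 0.48, against 1.69 over all genes, and 5 members (14.3%) were at least 2-fold lower where 36.8% of all genes were. Only Psme4 was at least 2-fold higher, where 27.8% of all genes were. In 14 members (40.0%) every microglia library lay below every bulk brain library, close to the 40.5% of all genes for which this held, and in 1 every microglia library lay above, where 34.2% of all genes did. Median-of-ratios size factors moved the median of all genes to -0.31 and library size alone to -0.33, and the members' median moved with it to -0.63 and -0.66. With protein-coding genes only, the medians were -0.36 for members and -0.18 for all genes. With no low-count filter they were -0.65 and -0.85, the only alternative in which members lay above all genes. In bulk tissue, fewer cells of a type and less RNA per cell cannot be told apart, so these are differences in the share of transcripts.

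The alpha ring forms the gate of the core particle. Of its 7 genes, 4 were lower (Psma2, Psma5, Psma6 and Psma7) and 3 did not pass (median log2 difference -0.62). Psma2, an outer-ring subunit gene (ENSMUSG00000015671, chromosome 13, 14787825 to 14848821, plus strand, GRCm39), had 43.0, 44.8, 42.9, 37.2 and 42.3 CPM in microglia, against 99.9, 136, 65.0, 63.8 and 64.8 CPM in bulk brain. The groups did not overlap, and bulk brain replicates 1 and 2 were the highest. The log2 difference was -1.03 ± 0.21 (SE; edgeR adjusted p = 7.0e-04). Psma2 shares its locus with AW209491, a gene on the same strand with 24.1% of its counts, so reads of both may be mixed. Psma1 differed least: 65.2, 72.7, 69.2, 63.3 and 72.5 CPM in microglia against 87.2, 99.4, 59.5, 56.9 and 54.1 CPM in bulk brain. Its microglia libraries lay below replicates 1 and 2 and above replicates 3 to 5 of bulk brain, and its log2 difference was -0.06 ± 0.17 (edgeR adjusted p = 0.76). Psma3 and Psma4 had log2 differences of -0.18 and -0.30, and Psma5, Psma6 and Psma7 of -0.88, -0.62 and -0.69. The Psma6 call had an adjusted p of 0.039 and was lost without any 1 of the microglia libraries (edgeR adjusted p of 0.065 to 0.084).

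The beta ring carries the proteolytic sites, and the 4 members studied here are its structural subunits without catalytic activity in the mature particle. All 4 were lower in microglia (median -0.75). Psmb4 (ENSMUSG00000005779, chromosome 3, 94791404 to 94794272, minus strand) stood at 63.9, 71.4, 58.4, 61.7 and 63.6 CPM in microglia, against 172, 240, 82.6, 81.7 and 80.8 CPM in bulk brain. All microglia libraries were below all bulk brain libraries, though replicates 1 and 2 of bulk brain stood far above replicates 3 to 5. Its log2 difference was -1.04 ± 0.30 (edgeR adjusted p = 0.0071), and -0.51 against replicates 3 to 5 alone. Psmb2 changed least of the 4, with 24.1, 26, 24.8, 28.6 and 27.7 CPM in microglia, against 39.1, 50.4, 31.6, 30.9 and 30.9 CPM in bulk brain, again without overlap (log2 difference -0.48 ± 0.15, edgeR adjusted p = 0.011). Psmb1 had a log2 difference of -0.82 and Psmb3 of -0.69, and the Psmb3 call was lost without microglia replicate 1, 2, 4 or 5 (edgeR adjusted p of 0.054 to 0.065).

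The 6 ATPases form the ring that unfolds substrates and opens the gate of the core. They differed widely among themselves, from -1.78 to -0.13 on the log2 scale, and held the largest falls of all 35 genes. Psmc5 (ENSMUSG00000020708, chromosome 11, 106146980 to 106153946, plus strand) had 46.5, 56.3, 48.3, 49.6 and 51.4 CPM in microglia, against 202, 294, 122, 122 and 126 CPM in bulk brain. Even the lowest bulk brain library was more than 2-fold above the highest of microglia, and the log2 difference was -1.78 ± 0.24 (edgeR adjusted p = 2.9e-05). Psmc1 (ENSMUSG00000021178, chromosome 12, 100076413 to 100089664, plus strand) behaved alike, with 58.4, 56.7, 53.4, 58.3 and 57.1 CPM in microglia, against 165, 234, 113, 111 and 112 CPM in bulk brain (log2 difference -1.37 ± 0.20, edgeR adjusted p = 5.6e-05). Psmc4 was the third ATPase gene called lower, at -0.74 ± 0.25 (edgeR adjusted p = 0.015). At the other end, Psmc6 had 88.4, 93.6, 92.6, 84.7 and 89.4 CPM in microglia, against 112, 117, 92.5, 86.1 and 83.1 CPM in bulk brain, and the groups overlapped (-0.13 ± 0.11, edgeR adjusted p = 0.30). Psmc2 (-0.33) and Psmc3 (-0.48) did not pass with all libraries. Psmc3 overlaps Slc39a13, a gene on the other strand with 26.6% of its counts.

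The uneven fall of the ATPases changed their order per unit of gene length. In microglia the highest was Psmc3 at 37.8 ± 2.22 CPM per kb of gene length, closely followed by Psmc5 at 36.2 ± 2.68 CPM per kb (SD). In bulk brain Psmc5 stood at 124, Psmc1 at 76.1 and Psmc3 at 52.6 CPM per kb. The highest ATPase gene was 2.61 times the lowest in microglia and 6.81 times in bulk brain (6.45 times in replicates 3 to 5), and the lowest was Psmc2 in both groups. Among the 29 genes of the core, base and lid, the coefficient of variation of the length-scaled levels was 42.8% in microglia, 66.9% in bulk brain and 62.3% in its replicates 3 to 5. Among the 6 ATPases it was 30.6%, 68.4% and 65.0%. Among the 11 core subunits it was 49.6%, 56.1% and 48.1%, so microglia were not more even there than replicates 3 to 5. The order was otherwise much alike (Spearman rho of CPM per kb between microglia and bulk brain 0.89 over all 35 genes, which share gene length and library scaling). The gene length of the table covers all annotated exons and exceeds the main transcript for some genes, so length-scaled levels are approximate.

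The base of the 19S particle also holds the large scaffolds Psmd1 and Psmd2 and the ubiquitin receptors Psmd4 and Adrm1. The scaffold genes were lower and the receptor genes did not pass. Psmd2 (ENSMUSG00000006998, chromosome 16, 20470402 to 20482164, plus strand) had 133, 154, 137, 146 and 140 CPM in microglia, against 272, 291, 221, 202 and 207 CPM in bulk brain, with no overlap (-0.75 ± 0.12, edgeR adjusted p = 9.2e-05). Psmd1 averaged 81.6 ± 3.05 CPM in microglia, against 109 ± 14.6 CPM in bulk brain (SD, n = 5 each), a log2 difference of -0.41 ± 0.11 (edgeR adjusted p = 0.0034). Adrm1 had 56.0, 49.8, 59.8, 51.9 and 50.1 CPM in microglia, against 70.6, 90.5, 48.2, 41.7 and 42.8 CPM in bulk brain. Its microglia values fell between the parts of bulk brain (-0.13 ± 0.21, edgeR adjusted p = 0.56). Psmd4 had a log2 difference of -0.44 ± 0.23 (edgeR adjusted p = 0.090), no smaller than that of Psmd1, and was called in 8 of 21 alternatives. The scaffold and receptor genes are thus set apart here by the call and not by size alone.

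The lid removes ubiquitin chains before degradation. Of its 8 genes, 5 were lower (Psmd3, Psmd7, Psmd12, Psmd13 and Psmd14) and 3 did not pass. Psmd14, which encodes the deubiquitinating metalloprotease of the lid (ENSMUSG00000026914, chromosome 2, 61542038 to 61630720, plus strand), fell most. It had 45.9, 44.5, 39.4, 34.8 and 41.1 CPM in microglia, against 98.9, 125, 70.6, 66.2 and 57.4 CPM in bulk brain, with no overlap (-1.02 ± 0.20, edgeR adjusted p = 5.3e-04). Psmd11, a scaffold subunit gene of the lid, hardly differed, with 57.7, 59.8, 60.4, 61.2 and 57.1 CPM in microglia, against 60.2, 64.0, 56.0, 53.1 and 53.3 CPM in bulk brain (0.05 ± 0.08, edgeR adjusted p = 0.61; the sign turned with other scalings). Psmd12, Psmd7, Psmd13 and Psmd3 had log2 differences of -0.61, -0.74, -0.71 and -0.45, and Psmd6 and Psmd8 of -0.15 and -0.41. Psmd13 overlaps Sirt3, on the other strand with 34.1% of its counts. The Psmd13 call was lost without microglia replicate 1, 3, 4 or 5 (edgeR adjusted p of 0.051 to 0.054), and the Psmd3 call without any 1 of the microglia libraries (0.053 to 0.074).

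The alternative activators differed in direction. Psme4, which encodes the large activator PA200 (ENSMUSG00000040850, chromosome 11, 30721726 to 30830361, plus strand), was the 1 member that rose. It had 123, 136, 138, 133 and 126 CPM in microglia, against 49.6, 38.2, 82.4, 79.7 and 78.1 CPM in bulk brain. Every microglia library was above every bulk brain library, and here replicates 1 and 2 of bulk brain were the lowest (log2 difference 1.00 ± 0.20, edgeR adjusted p = 5.5e-04). Psme3, which encodes the nuclear activator PA28 gamma (ENSMUSG00000078652, chromosome 11, 101207039 to 101214363, plus strand), fell, with 56.7, 60.4, 60.1, 64.8 and 66.7 CPM in microglia, against 90.5, 89.7, 89.4, 93.1 and 89.1 CPM in bulk brain. It was the 1 member whose bulk brain libraries did not divide, and its SD in bulk brain was 1.61 CPM (-0.55 ± 0.08, edgeR adjusted p = 4.0e-05). The length-scaled ratio of Psme4 to Psme3 was 0.663 to 0.809 in the microglia libraries and 0.150 to 0.324 in those of bulk brain. Psmf1, which encodes the proteasome inhibitor and binding protein PI31, had 29.8, 32.4, 26.7, 25.8 and 26.1 CPM in microglia, against 35.2, 41.2, 33.2, 30.5 and 32.9 CPM in bulk brain. Its ranges overlapped slightly, and the call (-0.30 ± 0.11, edgeR adjusted p = 0.031) was lost without microglia replicate 3, 4 or 5 (0.078 to 0.087).

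None of the 3 assembly chaperone genes passed the threshold with all libraries. Psmg2, which with Psmg1 forms a chaperone of alpha ring assembly (ENSMUSG00000024537, chromosome 18, 67774669 to 67787232, plus strand), had 16.5, 19, 16.2, 17.5 and 18.4 CPM in microglia, against 18.4, 25.3, 10.3, 10.3 and 12.2 CPM in bulk brain. The microglia libraries lay above replicates 3 to 5, below replicate 2 and around replicate 1 of bulk brain (0.19 ± 0.24, edgeR adjusted p = 0.48). Psmg1 averaged 10.3 ± 0.866 CPM in microglia, against 12.3 ± 5.16 CPM in bulk brain, and Pomp, the maturation factor that completes the core particle, 70.7 ± 3.53 CPM in microglia, against 86.9 ± 48.7 CPM in bulk brain (SD, n = 5 each).

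Which part of bulk brain served as the comparison set the size of the differences and, for a few genes, their sign. Each fit was rescaled on the libraries it held. Against replicates 1 and 2 alone, 33 members were lower (94.3%, where 44.9% of all genes were), 1 was higher (37.1% of all genes were) and 1 did not pass, with a median of -0.99. Against replicates 3 to 5 alone, 23 were lower (65.7%, where 47.4% of all genes were), 3 were higher (8.57%, where 37.9% were) and 9 did not pass, with a median of -0.29 against -0.23 for all genes. All 20 genes lower with all libraries were also lower against replicates 3 to 5, where Psmc3, Psmc6 and Psmd8 joined them at log2 differences of -0.17, -0.11 and -0.15. With the scaling over all libraries, these 3 genes were nearly level in microglia and replicates 3 to 5. Their means were 98.6 and 99.3 CPM for Psmc3, 89.7 and 87.3 CPM for Psmc6, and 68.0 and 67.9 CPM for Psmd8. Their calls thus depend on the rescaling of that fit. Psmc5 (-1.45 ± 0.05, edgeR adjusted p = 2.5e-11) and Psmc1 (-1.14 ± 0.05, edgeR adjusted p = 9.8e-11) were the only members more than 2-fold lower against replicates 3 to 5. Psme4 remained higher in both fits, by 1.49 against replicates 1 and 2 and by 0.56 against replicates 3 to 5. Psmg2 was lower against replicates 1 and 2 (-0.39, edgeR adjusted p = 0.022) and higher against replicates 3 to 5 (0.52, edgeR adjusted p = 4.4e-04). Pomp was lower against replicates 1 and 2 (-1.0, edgeR adjusted p = 3.5e-05) and higher against replicates 3 to 5 (0.21, edgeR adjusted p = 0.0041). The direction of these 2 assembly genes thus rests on which bulk brain libraries are used.

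**Figure D2:**
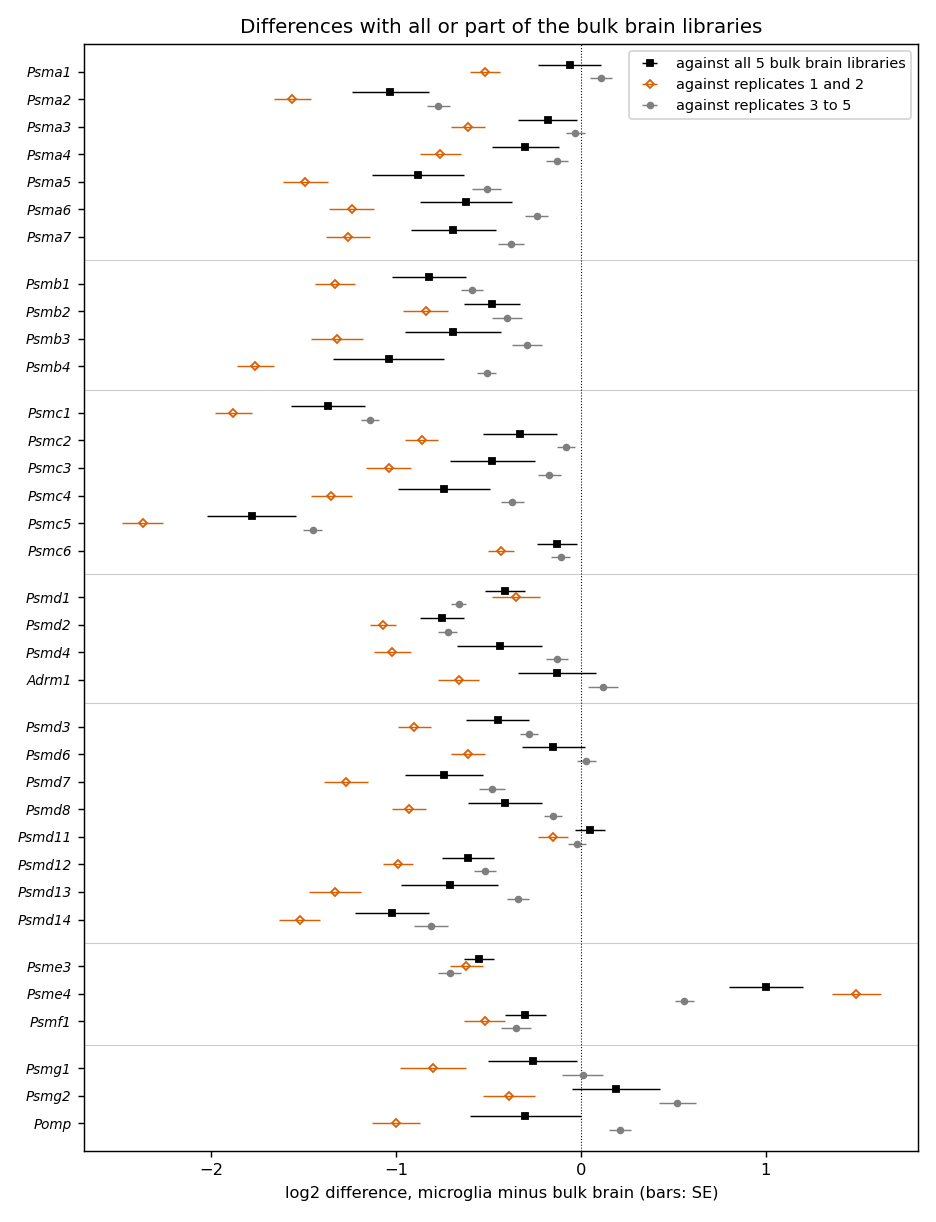
Log2 difference, microglia minus bulk brain, of each proteasome gene with its SE, in the fit with all 5 bulk brain libraries (black), with replicates 1 and 2 alone (orange) and with replicates 3 to 5 alone (grey). Psmc5 and Psmc1 lie left of -1 in all 3 fits, Psme4 lies right of 0 in all 3, and the grey points of Psma3, Psmd6, Psmd11 and Psmg1 lie within 0.03 of 0.

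Within bulk brain, 32 of the 35 members had both replicates 1 and 2 above replicates 3 to 5, which held for 35% of all genes tested, and 2 members, Psmd1 and Psme4, had both below, which held for 34.1% of all genes. The members' log2 ratio of replicates 1 and 2 over replicates 3 to 5 had a median of 0.86 and ran from -0.87 (Psme4) to 1.33 (Psmb4), while the median of all genes was 0.01. These ratios are descriptions, since the division of the libraries was itself seen in the data. The median coefficient of variation of a member was 5.87% over the microglia libraries, 36.2% over the bulk brain libraries and 2.95% over bulk brain replicates 3 to 5. Replicates 1 and 2 also differed from each other: replicate 2 was above replicate 1 for 32 members, for example at 165 against 104 CPM for Pomp, and below it for Psmd1 (82.8 against 113 CPM), Psme3 and Psme4.

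Gene length and other transcripts moved with the same division. Over all genes tested, the median log2 ratio of replicates 1 and 2 over 3 to 5 was 0.55 for genes of up to 2246 bases, 0.30 from 2247 to 3862 bases, -0.05 from 3863 to 6215 bases and -0.51 from 6216 bases upward, in 4 classes of nearly equal size. The members' medians in those classes were 1.01 (9 genes), 0.86 (15 genes), 0.82 (7 genes) and -0.02 (4 genes), so that members lay above the median of all genes in each. Spearman's rho of gene length with this ratio was -0.50 over the 35 members and -0.45 over 18621 genes with counts in both parts. Ribosomal protein genes took 1.27% and 1.89% of the counts in replicates 1 and 2 and 0.667% to 0.70% in replicates 3 to 5. Mitochondrially encoded genes took 2.43% to 2.79% in replicates 1 and 2 and 3.10% to 3.97% in replicates 3 to 5. Of 6 astrocyte markers, 4 were lower in replicates 1 and 2 than in replicates 3 to 5, led by Slc1a2 (1196 to 1355 CPM, against 2377 to 2443 CPM), and Gfap (286 to 320 CPM, against 207 to 215 CPM) and Aldh1l1 were higher. All 6 oligodendrocyte markers were higher there (sum 7002 to 7531 CPM, against 5548 to 5640 CPM). Of 6 endothelial markers, 5 were lower, among them Flt1 (54.7 to 57.1 CPM, against 83.6 to 87.8 CPM). Cldn5 was the 1 that was higher (48.6 to 106 CPM, against 26.7 to 31.6 CPM). The summed neuronal markers were lower (4194 to 4414 CPM, against 4588 to 4858 CPM). Singly, 3 of these 6 were lower, 1 was higher and 2 overlapped. Syt1 fell most (666 to 813 CPM, against 1260 to 1339 CPM), while Stmn2 was higher (417 to 464 CPM, against 301 to 307 CPM). The sums of microglia markers (220 to 263 CPM, against 198 to 211 CPM) and dissociation genes (301 to 360 CPM, against 265 to 289 CPM) were higher. Of 8 microglia markers 4 were higher, 1 lower and 3 overlapped, and of 8 dissociation genes 5 were higher and 3 overlapped. The part of RNA quality, dissection or library preparation in this division was not tested.

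**Figure D3:**
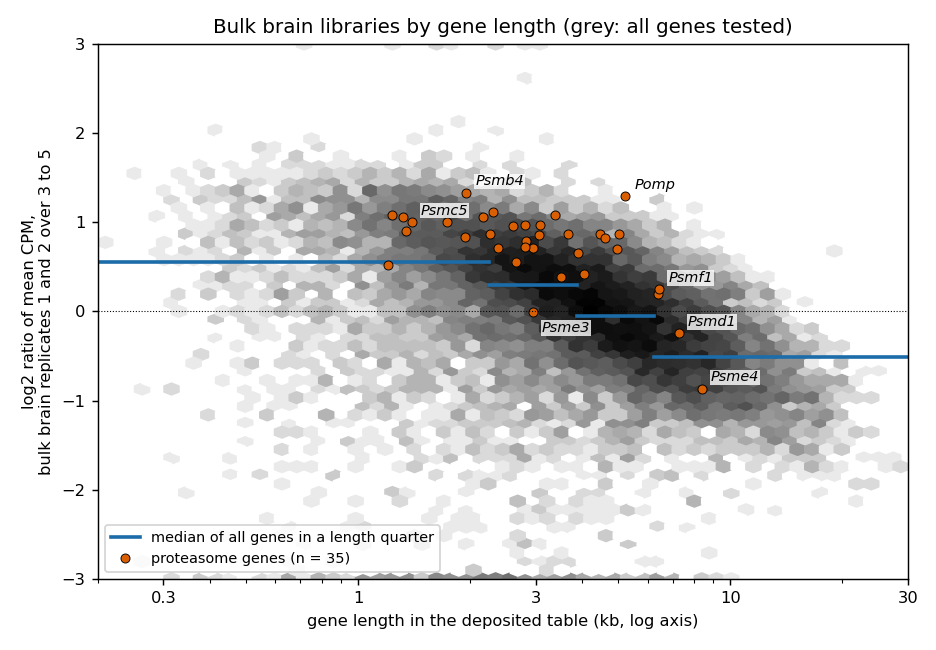
Log2 ratio of mean CPM in bulk brain replicates 1 and 2 over replicates 3 to 5 (vertical axis) against gene length in kb (log axis), for all genes tested (grey density, darker for more genes, ratios past the axis drawn at its edge) and the 35 proteasome genes (orange). Blue lines are the medians of all genes in each of the 4 gene length classes, which descend with length from 0.55 to -0.51; most proteasome genes lie above them, and Psme4, Psmd1 and, barely, Psme3 lie below 0.

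The sequences before the annotated starts of 4 members are shown as the extremes of the comparison (the 2 largest falls, Psmc5 and Psmc1, and the rise, Psme4) and as the called member with a match to the antioxidant response element core (Psmd12). That element is bound by the transcription factors encoded by Nfe2l1 and Nfe2l2, and the first of these is known to raise proteasome genes when the proteasome is inhibited. The 250 bases are from RefSeq on GRCm38.p6, an older build than the GRCm39 of the counts, and are read 5′ to 3′ on the strand of the gene. Capitals mark matches to TGACNNNGC (the element's core) or CCAAT on either strand.
Psmc5 (chr11:106255935-106256184, plus strand): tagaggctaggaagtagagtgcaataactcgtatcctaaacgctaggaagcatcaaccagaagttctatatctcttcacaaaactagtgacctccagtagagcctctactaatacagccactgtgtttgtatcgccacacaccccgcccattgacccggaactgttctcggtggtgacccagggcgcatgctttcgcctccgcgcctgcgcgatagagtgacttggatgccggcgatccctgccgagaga
Psmc1 (chr12:100109952-100110201, plus strand): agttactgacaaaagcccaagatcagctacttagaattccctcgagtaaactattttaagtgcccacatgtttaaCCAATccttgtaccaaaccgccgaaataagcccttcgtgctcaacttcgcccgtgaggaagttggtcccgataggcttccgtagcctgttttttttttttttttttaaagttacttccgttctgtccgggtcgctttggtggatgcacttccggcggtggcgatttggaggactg
Psmd12 (chr11:107479278-107479527, plus strand): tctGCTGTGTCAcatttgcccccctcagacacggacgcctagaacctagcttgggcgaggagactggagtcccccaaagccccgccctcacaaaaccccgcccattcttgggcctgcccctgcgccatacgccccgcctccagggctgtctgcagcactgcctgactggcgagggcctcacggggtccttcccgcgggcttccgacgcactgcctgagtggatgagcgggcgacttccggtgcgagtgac
Psme4 (chr11:30771525-30771774, plus strand): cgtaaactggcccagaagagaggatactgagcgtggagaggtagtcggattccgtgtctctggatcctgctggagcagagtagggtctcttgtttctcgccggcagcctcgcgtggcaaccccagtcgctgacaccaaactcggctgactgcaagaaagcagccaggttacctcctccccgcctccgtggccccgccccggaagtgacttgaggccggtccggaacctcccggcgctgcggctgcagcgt

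The match in Psmd12 begins 247 bases before the start, on the minus strand, and that in Psmc1 begins 175 bases before it, on the plus strand. Of the 35 members, 29 had a window in the RefSeq table. The element core stood in 3 of these 29 (Adrm1, Psmc6 and Psmd12), 10.3% of them, and in 10.2% of all 32851 windows. CCAAT stood in 12 of the 29 (41.4%) and in 33.8% of all windows. The member shares count genes and the others count windows. The 29 members held 31 windows, 3 with the element core and 12 with CCAAT, so by window their shares are slightly lower. A match is a description of the letters and not of binding, and windows of 250 bases leave out elements elsewhere.

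The other genes of the pathway placed these small differences beside larger ones. Of 37 genes tested on 7 further lists, microglia showed 10 higher, 16 lower and 11 not past the threshold (median log2 difference -0.26). The lower genes are 43.2% of these, where 43.9% of all genes tested were lower, and the higher genes 27.0%, where 37.2% of all genes were higher. Against bulk brain replicates 1 and 2 alone 11 were higher and 22 lower, where 37.1% and 44.9% of all genes were. Against replicates 3 to 5 alone 12 were higher and 19 lower, where 37.9% and 47.4% of all genes were. All 3 constitutive catalytic subunit genes were lower: Psmb5 by -1.40 ± 0.33, Psmb6 by -0.80 ± 0.30 and Psmb7 by -1.01 ± 0.17 on the log2 scale (edgeR adjusted p = 0.0018, 0.026 and 1.9e-04). Their immunoproteasome counterparts were higher with all libraries, Psmb10 not against every part of bulk brain. Psmb8 averaged 49.0 ± 2.69 CPM in microglia, against 1.79 ± 1.39 CPM in bulk brain, Psmb9 45.6 ± 1.36 and 1.36 ± 0.367 CPM, and Psmb10 62.0 ± 2.39 and 31.9 ± 20.9 CPM (SD, n = 5 each). The Psmb10 groups overlapped, since bulk brain replicate 2 stood at 66.6 CPM and the microglia libraries at 59.1 to 64.5 CPM. Its log2 difference was 0.96 with all libraries, 0.20 against replicates 1 and 2 (edgeR adjusted p = 0.28) and 1.58 against replicates 3 to 5 (edgeR adjusted p = 6.3e-11). Per length, Psmb8 amounted to 0.630 to 0.765 of Psmb5 in microglia and 0.00734 to 0.0115 of it in bulk brain, and Psmb9 to 0.487 to 0.571 of Psmb6 in microglia and 0.00613 to 0.0127 in bulk brain. Psmb10 exceeded Psmb7 in every microglia library, at ratios of 4.18 to 4.90, against 0.777 to 1.63 in bulk brain. Without length scaling, microglia averaged 49.0 CPM of Psmb8 against 18.7 CPM of Psmb5, and 45.6 CPM of Psmb9 against 45.1 CPM of Psmb6. Which of Psmb8 and Psmb5 was higher in microglia thus rested on the gene lengths, which are approximate. Psmb9 and Psmb6 were nearly level in microglia without length scaling. Psmb10 exceeded Psmb7 in microglia without it as well, at 62.0 against 27.7 CPM. The subunit genes of the interferon-induced activator PA28 were higher too, Psme1 by 1.57 and Psme2 by 1.70, although Psme2 has the close copy Psme2b, which may share its reads.

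The regulators of proteasome transcription were the most divided list. Nfe2l1, the factor behind the recovery of proteasome genes, averaged 113 ± 7.19 CPM in microglia, against 349 ± 15.0 CPM in bulk brain (log2 difference -1.63 ± 0.08, edgeR adjusted p = 4.0e-09). Nfe2l2, the factor of the antioxidant response, averaged 317 ± 15.2 CPM in microglia, against 15.9 ± 2.28 CPM in bulk brain (4.32 ± 0.12, edgeR adjusted p = 4.1e-11). Ddi2, the protease that releases the Nfe2l1 product in its active form, was higher at 1.60 ± 0.16, and Ngly1, which removes its sugar chains, at 0.65 ± 0.08 (edgeR adjusted p = 2.3e-06 and 1.5e-05). Within bulk brain, the log2 ratio of replicates 1 and 2 over 3 to 5 was 0.08 for Nfe2l1, -0.01 for Nfe2l2, 0.14 for Ngly1 and -0.66 for Ddi2.

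Among the shuttles that bring ubiquitinated proteins to the proteasome, 6 of 8 genes were lower and none higher, led by Ubqln2, at 50.9 ± 3.29 CPM in microglia, against 236 ± 1.27 CPM in bulk brain (-2.21 ± 0.08, edgeR adjusted p = 2.7e-10). The bound enzymes and adaptors gave 2 higher and 3 lower of 7, with Zfand5, an activator of the particle, at 1.21 ± 0.08 and the deubiquitinase gene Usp14 at -1.16 ± 0.11 (edgeR adjusted p = 6.6e-08 and 9.7e-07). The second higher gene, Ecpas, a proteasome adaptor, was at 0.49 with all libraries and at 0.05 against replicates 3 to 5, where it was not called. Ube3a, a ubiquitin ligase gene, was not called with all libraries (-0.03), higher against replicates 1 and 2 (0.70, edgeR adjusted p = 3.8e-05) and lower against replicates 3 to 5 (-0.55, edgeR adjusted p = 1.1e-06). Of 6 further subunit and assembly genes, 2 were lower, Psmd9 (-0.70) and Psmd5 (-0.35). Of 4 ubiquitin and E1 genes reported, the E1 gene Uba1 was lower (-0.78 ± 0.08, edgeR adjusted p = 1.5e-06) and 3 did not pass, among them the polyubiquitin gene Ubb, at 772 ± 61.1 CPM in microglia, against 751 ± 284 CPM in bulk brain. Psmg3 and Ubb were lower against replicates 1 and 2 (-0.64 and -0.50) and higher against replicates 3 to 5 (0.77 and 0.31). Zfand5 is also known to respond to stress, and the dissociation response genes were high in the same microglia libraries; their part in these values was not tested.

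**Figure D4:**
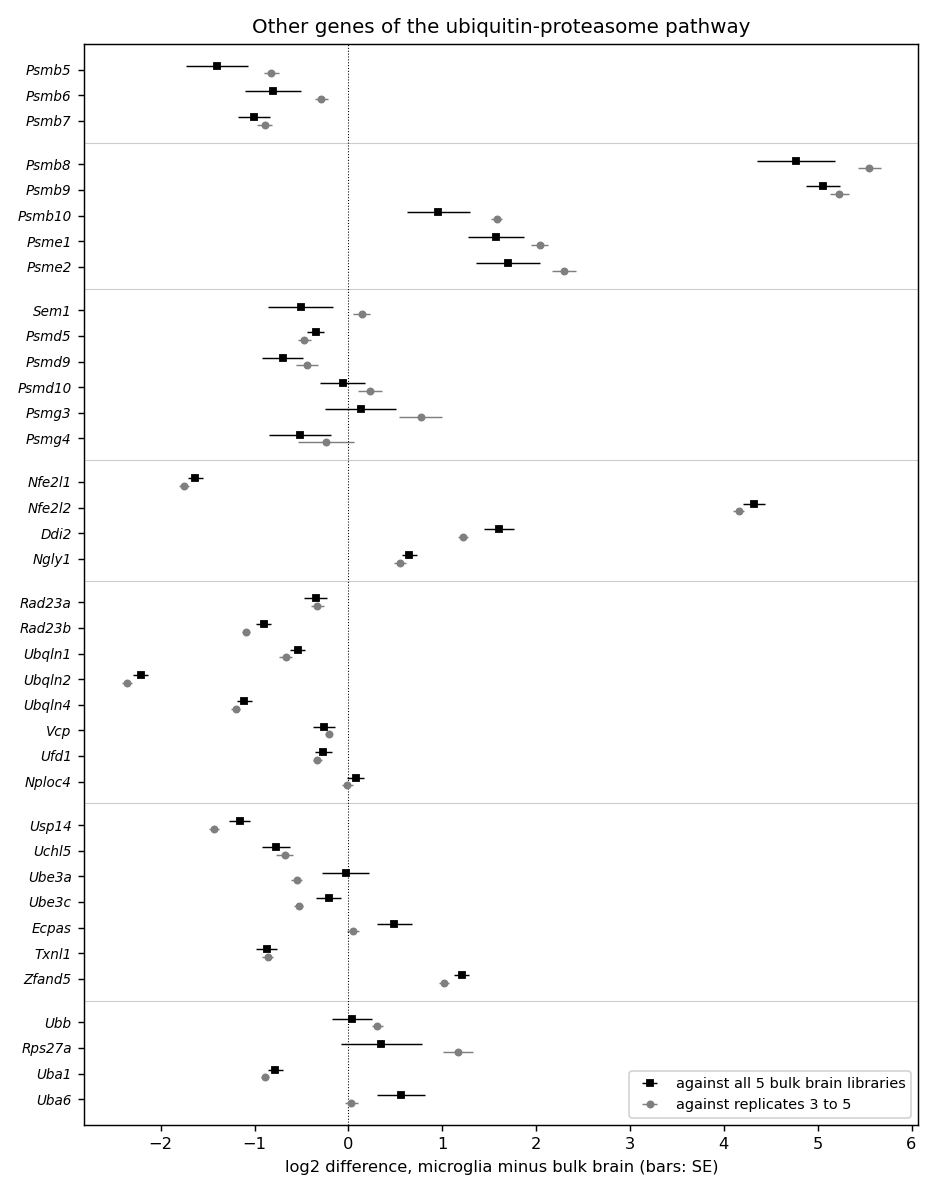
Log2 difference, microglia minus bulk brain, with its SE, of 37 other ubiquitin-proteasome genes on 7 lists, from the catalytic subunits (top) to ubiquitin and E1 genes (bottom), with all 5 bulk brain libraries (black) and with replicates 3 to 5 alone (grey). Psmb8, Psmb9 and Nfe2l2 lie furthest to the right, at 4.32 or above in black, while Psmb5, Psmb6 and Psmb7 lie left of 0.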

How the data were processed

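The deposited values were raw, unnormalized read counts of genes in 10 mouse libraries, held in 1 table (per the file headers). Per the submitters' processing notes, CASAVA, HISAT2 2.2.1 and featureCounts 2.0 and the build GRCm39 (mm39) were named. The sources used here state neither the strand setting nor the annotation release. Without a known strand setting, reads of overlapping genes may be mixed: 14 of the 35 members overlap another gene, and 4 (Psma2, Psma3, Psmc3 and Psmd13) overlap one with more than 10% of their counts. Of 5 proteasome pseudogene rows, the highest held 282 counts in a library (Psma5-ps). Each member matched 1 row. All value columns were mapped to samples.

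Genes were kept by filterByExpr, scaled by TMM, and fitted with glmQLFit of edgeR 4.0.16 (R 4.3.3; quasi-likelihood test) with group as the only term, Benjamini-Hochberg adjustment over 18969 genes and a threshold of 0.05. The SE is the log2 difference over the square root of F. Alternatives used limma 3.58.1 and DESeq2 1.42.0. The fit was tested on simulated data, in which it missed most small differences. Among genes altered 1.5-fold, 7.46% were recovered. The share rose to 55.2% where the simulated difference was 2-fold, and to 100% where it was 4-fold. False calls stood at 1.82%. A member that was not called may therefore still differ, even by 2-fold, and is not shown to be unchanged. The simulation gave all genes the same spread and drew bulk brain without its division, so the shares are approximate for single members. No 2 libraries of a group were as alike as counting alone would make them (lowest chi-square over degrees of freedom 5.17). Same-numbered samples of the groups did not deviate together (correlations of -0.0543 to 0.025), so the numbers were not taken as pairs.

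The members and gene lists were chosen with earlier results of these data known. All members are named; those given for each library are the largest called rise, the largest called fall and the smallest difference of each role (Psmc1 was added after its values were seen). Of the pathway lists, the largest difference of each and the catalytic subunits are named, and others were chosen after their values were seen. Paaf1, also listed, was not analysed here. Further listed genes are not reported here and were left out of the pathway counts. Levels and plots were made in Python 3.11.15 (pandas 2.3.3, SciPy 1.17.1; matplotlib 3.10.9).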

Additional observations from a re-analysis of the deposited data

Results flagged for a closer look

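In 70 sets of 5 libraries (35 members in each group), 3 single libraries stood far from the others of their group, where chance gives about 1 in 20 sets. Psma5 stood at 34.6 CPM in microglia replicate 5 and at 28.7 to 29.8 CPM in the other microglia libraries. Psmd13 stood at 54.4 CPM in microglia replicate 2 and at 45.0 to 46.6 CPM in the other microglia libraries. Psmd1 stood at 82.8 CPM in bulk brain replicate 2 and at 113 to 119 CPM in the other bulk brain libraries.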

How the results depend on the processing

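Of the 21 members called, 16 kept their call in all 21 alternatives (Psma2, Psma5, Psma7, Psmb1, Psmb2, Psmb4, Psmc1, Psmc4, Psmc5, Psmd1, Psmd2, Psmd7, Psmd12, Psmd14, Psme3 and Psme4), and none of the 21 changed sign. The count of lower members was 33 and their median -0.99 against bulk brain replicates 1 and 2 alone, and the count of higher members was 3 against replicates 3 to 5 alone. Over the fits that leave out 1 library, 15 to 27 members were lower and 1 higher, with medians of -0.64 to -0.44. The lowest counts, 15 to 17, came without 1 microglia library, and the highest, 26 and 27, without bulk brain replicate 3, 4 or 5. With at least 10 CPM in at least 5 samples, 4679 genes were higher and 4910 lower, since fewer genes were tested. With library size alone or upper-quartile scaling, 1 member in place of 2 had bulk brain replicates 1 and 2 below the rest. The replicate number as a block left 1 member higher and 18 lower (36.2% and 42.4% of all genes), and the Psma6 and Psmb3 calls were lost under it (-0.51 and -0.57), as they were with limma-voom and no block (-0.51 and -0.58). Among members not called, the sign changed for Psmd11 (-0.12 under DESeq2 and under median-of-ratios scaling, -0.14 with library size alone, -0.13 with no low-count filter, -0.15 and -0.02 against replicates 1 and 2 and against 3 to 5, and -0.08 to 0.08 leaving out 1 library), Psma1 (0.01 with upper-quartile scaling, 0.06 with coding genes only, 0.11 against replicates 3 to 5), Psmg2 (-0.39 against replicates 1 and 2, and -0.01 to 0.31 leaving out 1 library), and, against replicates 3 to 5, Adrm1 (0.12), Psmd6 (0.03), Psmg1 (0.01) and Pomp (0.21). The causes were not tested, and 5 libraries a group with a wide spread in bulk brain limit what can be called.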

Other observations

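Psma8, which encodes an alpha subunit known from testis, had 77 to 153 counts in the microglia libraries and 16 to 21 in those of bulk brain, a level of 4.70 ± 1.24 CPM in microglia against 0.561 ± 0.0689 CPM in bulk brain (SD, n = 5 each; log2 difference 3.06 ± 0.26, edgeR adjusted p = 4.0e-07). It was chosen after its values were seen. Psmb11, the catalytic subunit gene of the thymus, had at most 1 count in a microglia library and 2 to 14 in those of bulk brain. Psme2b, the copy of Psme2, stood at 57.6 ± 8.12 CPM in microglia against 8.03 ± 4.09 CPM in bulk brain, above the 41.6 ± 5.99 and 12.8 ± 7.70 CPM of Psme2 in microglia but not in bulk brain, and the reads of the 2 genes may be mixed.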
